A study of Homo sapiens with 2 samples.

Results

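The genes described here make the RNAs and protein scaffolds of 2 nuclear bodies, the nuclear speckle and the paraspeckle. They were listed by name, with earlier results of these data known: the long noncoding RNAs MALAT1 and NEAT1, the speckle proteins SON, SRRM2, SRRM1 and ACIN1, and the paraspeckle proteins SFPQ, NONO, PSPC1 and RBM14. These 10 genes stood among 54261 listed in the table, and all 10 were among the 12620 genes that passed the filter on low values, a mean of at least 1 CPM (counts scaled to a common library size) over the libraries.

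RNA-seq had been run on 2 libraries of RKO, an established human colon carcinoma cell line, 1 from cells transfected with the negative control siRNA (si-NC) and 1 from cells transfected with an siRNA against SRSF2 (si-SRSF2). The comparison asks how the levels of these genes stood when SRSF2, a serine/arginine-rich splicing factor that itself resides in speckles, was depleted. Both libraries were made with a strand-specific kit that selects RNAs carrying a poly(A) tail. Each group is a single library, so no difference below has a replicate check, no test was run, and an siRNA effect cannot be told apart from the variation between transfections. The knockdown rests on 1 siRNA sequence in 1 cell line.

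Nuclear speckles are bodies in the nucleus that store and modify splicing factors. SON and SRRM2 are large proteins with long stretches rich in serine and arginine that hold the speckle together, and MALAT1 is an abundant RNA that accumulates in it. Paraspeckles are built on the long isoform of NEAT1, onto which SFPQ and NONO bind early. The short NEAT1 isoform shares the start of the long one and ends in a poly(A) tail, but does not build a paraspeckle by itself. MALAT1 and long NEAT1 are not polyadenylated at their mature 3′ ends: RNase P cuts them before a tRNA-like structure, and U-rich and A-rich stretches near the cut fold into a triple helix that protects the end.

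The sequences of these ends are shown because the libraries were selected for poly(A) tails. How either RNA came to be in them was not examined. Each is written 5′ to 3′ from the GRCh38 genome on the plus strand. The MALAT1 stretch is chr11:65506022-65506136 and ends 20 bases after the last base before its cut, at 65506116, the base before the start of mascRNA in RefSeq. The NEAT1 stretch is chr11:65445446-65445560 and ends 20 bases after the annotated end of the long isoform at 65445540. Capitals mark every run of at least 9 bases found in both stretches.
MALAT1 3′ end: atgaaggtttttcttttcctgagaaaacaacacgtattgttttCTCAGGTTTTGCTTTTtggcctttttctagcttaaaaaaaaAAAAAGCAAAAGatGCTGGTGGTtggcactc
NEAT1 3′ end: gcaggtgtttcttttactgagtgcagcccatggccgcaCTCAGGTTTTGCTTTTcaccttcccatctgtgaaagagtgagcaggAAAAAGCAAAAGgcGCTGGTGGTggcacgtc

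The ends shared 3 such runs, of 16, 12 and 9 bases, in the same order. The 12-base run lay at bases 85 to 96 of both stretches and so spans the cut after base 95, and the 9-base run lay at bases 99 to 107 of both, inside the tRNA-like part. The stretches differed in the tract before the cut, where the longest run of A was 13 bases in MALAT1 and 5 in NEAT1. The short NEAT1 isoform ends differently, at a canonical poly(A) signal, in capitals here, that begins the last 11 bases of the latest-ending of 8 annotated short isoforms (end at 65426513, within chr11:65426474-65426533, plus strand).
NEAT1 short isoform 3′ end: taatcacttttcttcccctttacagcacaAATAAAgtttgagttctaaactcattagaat

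That end lies 3740 bases from the start of the gene. The deposited counts are per gene, so reads of the short and the long isoform cannot be separated here, and each NEAT1 value below is the sum of both.

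The si-NC library held 19931360 counts and the si-SRSF2 library 14512802, spread over 19882 and 19467 genes. At this depth 3 counts, the most that a count of 0 allows, came to 0.151 and 0.207 CPM, well below the level of each of the 10 genes. The targeted gene was lower as labelled: SRSF2 (chromosome 17, 76734115 to 76737333, minus strand) had 1964 and 713 counts in the control and knockdown libraries, or 98.5 and 49.1 CPM, a log2 ratio of -0.997 with an interval from -1.13 to -0.88. Among markers of the cells, KRT8 (27.4 and 42.6 CPM), KRT18, EPCAM, CDX2 and VIM were detected, and KRT19 and CDH1 had 10 counts or fewer in each library. Of 7 markers of blood, fibroblast and endothelial cells, 6 had 13 counts or fewer in each library, and CD68, which encodes a lysosomal protein also made outside macrophages, had 763 and 982 CPM.

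Each log2 ratio compares si-SRSF2 with si-NC after TMM scaling, which sets the library sizes so that most genes keep their level, and after adding 0.5 CPM to each value. Its interval is a 95% Clopper-Pearson interval of the counts. Such intervals cover counting error only. From bulk RNA, fewer cells with a transcript and less of it per cell cannot be told apart.

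NEAT1 and MALAT1 both stood higher in the si-SRSF2 library, and NEAT1 by more. The 4 speckle proteins split, with SRRM1 and ACIN1 lower and SON and SRRM2 close to their control level. SFPQ and NONO were near their control level, whereas PSPC1 and RBM14 were higher.

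NEAT1 (ENSG00000245532.11) lies on chromosome 11 from 65422774 to 65445540 on the plus strand, and its canonical transcript is 1 exon of 22743 bases. The control library held 19861 NEAT1 counts and the knockdown library 21824, equal to 997 and 1504 CPM. The si-SRSF2 library thus held more NEAT1 counts in absolute number although it was the shallower one. The difference came to 50.9%, a log2 ratio of 0.59 with an interval from 0.57 to 0.62. NEAT1 took 0.0996% of all counts with si-NC and 0.150% with si-SRSF2. It ranked as the 59th most abundant gene by mean CPM, and none of the 58 genes above it in level had as high a log2 ratio.

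MALAT1 (ENSG00000251562.11), about 52.1 kb downstream on the same strand, occupies 65497640 to 65508073 and has a canonical transcript of 1 exon and 10434 bases. Its counts were 7158 and 6436, or 359 CPM with si-NC and 443 with si-SRSF2, a difference of 23.5%. The log2 ratio was 0.30, with an interval from 0.26 to 0.35. Of the 302 genes at least as abundant, 16 had a higher log2 ratio.

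The pair can also be set against each other within a library, which removes any effect of the scaling. There were 2.77 NEAT1 counts per MALAT1 count in si-NC and 3.39 in si-SRSF2, an odds ratio of 1.22 with an exact 95% interval from 1.18 to 1.27. Per kilobase of canonical transcript these ratios were 1.27 and 1.56. NEAT1 thus had more counts than MALAT1 in both libraries, and the gap was wider in si-SRSF2. The size of the ratio per length depends on the gene models: in si-NC, MALAT1 stood at 34.4 CPM per kilobase of the canonical transcript and 40.9 of its shorter RefSeq span, and NEAT1 at 43.8 by the long isoform and 266 by the short one.

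**Figure D1:**
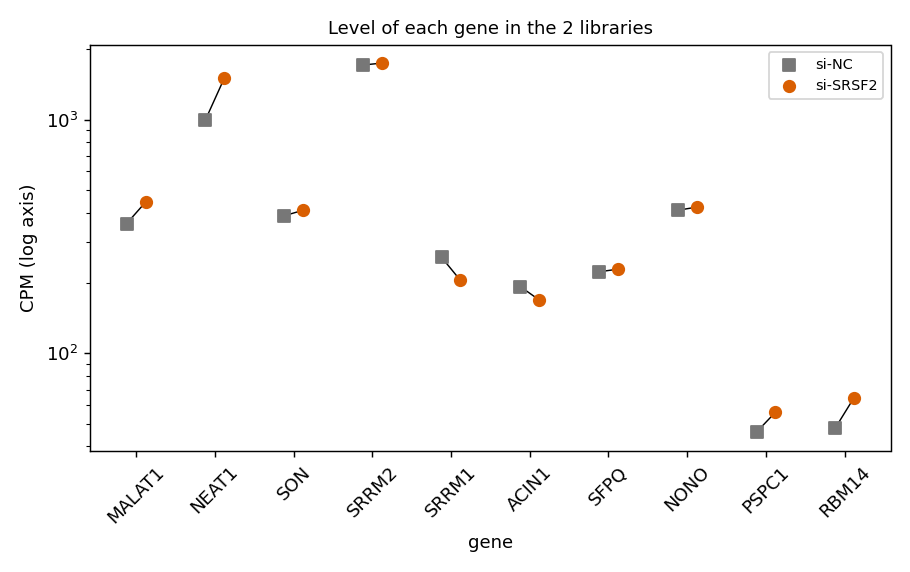
Level of each of the 10 genes in CPM on a log axis, with a square for the si-NC library and a circle for the si-SRSF2 library. NEAT1 goes from 997 to 1504 CPM, and SRRM1 and ACIN1 are the genes whose circle lies below the square.

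Several other measures also differed between the libraries. RNAs that end without a poly(A) tail and that a poly(A) library should hold little of were far more frequent in si-SRSF2: RMRP, the RNA of RNase MRP, had 10 and 230 counts, and RN7SK, which holds the elongation factor P-TEFb inactive, had 50 and 357. RPPH1, the RNA of RNase P, had 1 and 104 counts, and TERC, the telomerase RNA, had 1 and 14, while RN7SL1 and RN7SL2 were listed at 0 in both. These 6 genes were chosen with their values known. Histone genes of the clusters, whose main transcripts also lack a tail, were split: of 14 that passed the filter out of 90 listed, 7 were higher and 7 lower, with a median log2 ratio of -0.05.

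Genes with 1 exon, like MALAT1 and NEAT1, were higher in si-SRSF2 more often than lower. Of 589 such genes 363 were higher and 226 lower, with a median log2 ratio of 0.12, against a median of -0.03 in the 10705 genes with several exons. Past 1.5-fold, 94 of the 589 were higher and 18 lower, against 281 and 361 of the 10705. Within the class, the 319 pseudogenes had a median of 0.20 and the 34 long noncoding RNAs 0.17, whereas the 149 protein-coding genes had a median of -0.00. Of the 34, 8 were at least 1.5-fold higher and none as much lower. Among the 70 genes with 1 exon at the level of the 10 genes or above, 44 were higher and 26 lower. Of these 70, 4 were at least 1.5-fold higher, NEAT1 among them, and 1 as much lower. At that level the 4461 genes with several exons had 45 at least 1.5-fold higher and 43 lower, and 1.03% of all genes there were at least 1.5-fold higher. The part of these differences in the NEAT1 and MALAT1 values was not tested.

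Internal runs of A can hold an RNA in a poly(A) library without a tail. The longest run of A was 22 bases in the canonical transcript of NEAT1, beyond the end of the short isoform, and 2.51% of the transcripts of tested genes had a run as long. In MALAT1 it was 13 bases, the tract before the cut that is shown above, and 13.4% had a run as long. SFPQ, whose messenger RNA has a tail, also had a run of 13, and the other genes had runs of 5 to 10. NEAT1 was also unusual in length, since 0.0974% of tested genes had a canonical transcript as long.

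Reads that fall on overlapping genes may be left out by the counting, and whether strand was used in it is not given in the sources used here. Nor is it certain which gene models were counted, because the methods name Ensembl and many symbols in the table have the LOC form of NCBI. The overlaps and the levels per kilobase given here rest on GENCODE models. The exons of MALAT1 were covered on the opposite strand over 83.7% of their length, mostly by its antisense RNA TALAM1, which shares 8121 bases with it and is not listed under that name in the table. MALAT1 and TALAM1 reads therefore cannot be told apart with certainty. On its own strand MALAT1 shared 1.46% of its exons, and NEAT1 shared 2.13%, with small RNA genes such as MIR612, which had 0 counts in both libraries.

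The genes around the pair did not share a direction. Within 200 kb of either start, 13 other genes reported here reached a mean of 1 CPM, of which 6 were higher and 7 lower, with a median log2 ratio of -0.00. The lowest was POLA2, a subunit of DNA polymerase alpha, with 771 and 384 counts and a log2 ratio of -0.54. The highest was CDC42EP2, an effector of the GTPase CDC42, with 102 and 122 counts and a log2 ratio of 0.66. LTBP3, a binding protein of latent TGF-beta, had 645 and 647 counts and a log2 ratio of 0.46, and EHBP1L1, a membrane-traffic protein, had 3957 and 2158 counts and a log2 ratio of -0.42. The genes closest upstream of NEAT1, FRMD8 and SLC25A45, had log2 ratios of 0.20 and 0.07. The remaining 7 were DPF2 (0.17), PCNX3 (0.15), SIPA1 (-0.00), TIGD3 (-0.05), MAP3K11 (-0.12), FAM89B (-0.16) and RELA (-0.17), in log2 ratios.

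**Figure D2:**
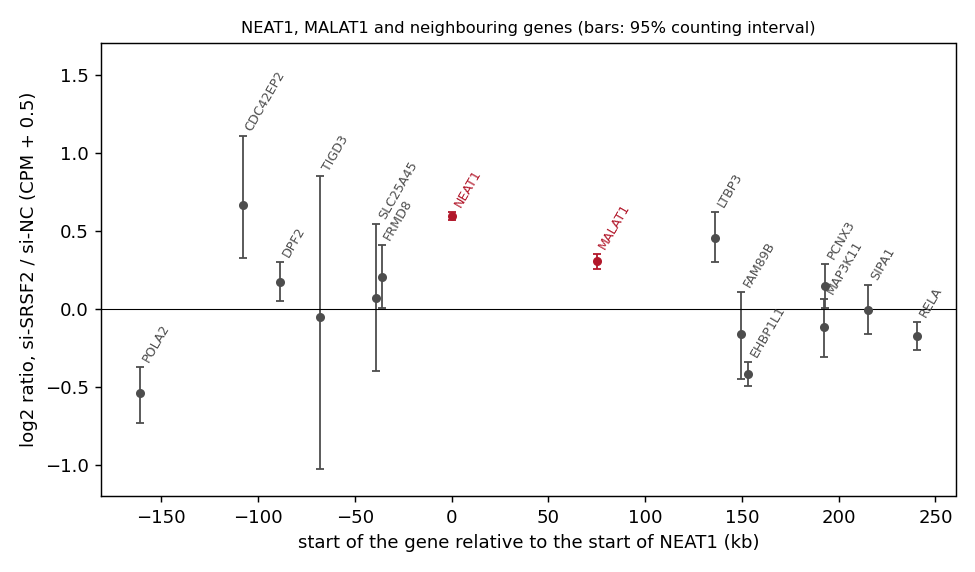
Log2 ratio, si-SRSF2 over si-NC, for NEAT1, MALAT1 (red) and the 13 neighbouring genes reported (grey) against the distance of each start from the start of NEAT1 in kb, with 95% counting intervals as bars. NEAT1 (0.59) and MALAT1 (0.30) stand among neighbours that run from -0.54 to 0.66.

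The speckle scaffolds came next. SON (ENSG00000159140.23, chromosome 21, 33543038 to 33577481, plus strand) encodes a DNA- and RNA-binding protein at the core of the speckle. It had 7727 and 5939 counts, or 388 CPM in si-NC and 409 in si-SRSF2. The log2 ratio was 0.08, with an interval from 0.03 to 0.13, and 123 of the 304 genes as abundant were higher. Thus SON lay well inside the range of genes at its level.

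SRRM2 (ENSG00000167978.19, chromosome 16, 2752626 to 2772538, plus strand) is the other core scaffold and a spliceosome component. It was the most abundant of the 10, with 34100 and 25322 counts, or 1711 and 1745 CPM. Its log2 ratio was 0.03, with an interval from 0.00 to 0.05. Relative to each other SON and SRRM2 did not differ beyond counting error: SRRM2 had 4.41 counts per SON count in si-NC and 4.26 in si-SRSF2, an odds ratio of 0.966 with an interval from 0.930 to 1.003.

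SRRM1 (ENSG00000133226.19, chromosome 1, 24631716 to 24673281, plus strand), also called SRm160, is a splicing coactivator that works with SRRM2. SRRM1 counts were 5129 and 2975, equal to 257 CPM with si-NC and 205 with si-SRSF2, a difference of -20.4%. With a log2 ratio of -0.33 and an interval from -0.39 to -0.26, it was the lowest of the 10 genes. Among the 731 genes as abundant, 28 had a lower log2 ratio. There were 0.150 SRRM1 counts per SRRM2 count in si-NC and 0.117 in si-SRSF2, an odds ratio of 0.781 with an interval from 0.744 to 0.820. Against SON the odds ratio was 0.755, with an interval from 0.713 to 0.799.

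ACIN1 (ENSG00000100813.15, chromosome 14, 23058564 to 23095614, minus strand), or acinus, ties speckles to the exon junction complex through the ASAP complex. It had 3844 and 2455 counts, or 193 and 169 CPM. The log2 ratio was -0.19, with an interval from -0.26 to -0.12, and 163 of 1063 genes as abundant were lower. The counts per SON count were 0.497 with si-NC and 0.413 with si-SRSF2, an odds ratio of 0.831 with an interval from 0.781 to 0.883.

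Within the summed counts of these 4 genes, SRRM2 took 67.1% in si-NC and 69.0% in si-SRSF2, SON 15.2% and 16.2%, SRRM1 10.1% and 8.11%, and ACIN1 7.57% and 6.69%. The 4 proteins share what SRSF2 is named for. Counted in the protein of the canonical transcript, RS and SR dipeptides came to 12.03 per 100 residues in SRRM2, 5.75 in SRRM1, 3.83 in SON and 3.82 in ACIN1, against a median of 0.763 over 10436 coding genes tested. A lower density was found in 99.8% of these genes for SRRM2, 99.6% for SRRM1 and 99.3% for both SON and ACIN1. SRSF2 itself had 23.5 per 100 residues. The genes that stood lower, SRRM1 and ACIN1, and those that did not, SRRM2 and SON, thus did not separate by this density.

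**Figure D3:**
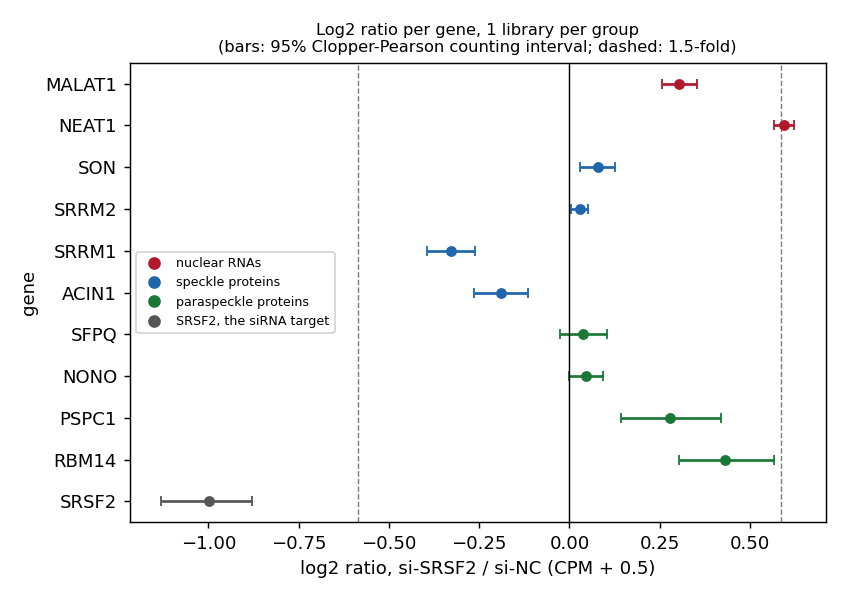
Log2 ratio, si-SRSF2 over si-NC, for the 10 genes and for SRSF2, with 95% Clopper-Pearson counting intervals as bars and dashed lines at a 1.5-fold difference. NEAT1 (0.59) lies just past the upper line, SRRM1 (-0.33) and ACIN1 (-0.19) lie below 0, and SRSF2 lies at -0.997.

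Of the paraspeckle proteins, SFPQ, NONO and PSPC1 form the DBHS family, which pair with each other through a shared RNA-binding and coiled-coil core. In local alignments of the canonical proteins, SFPQ and NONO were identical at 63.4% of 448 aligned positions, SFPQ and PSPC1 at 66.4% of 438, and NONO and PSPC1 at 66.8% of 431. In contrast to the speckle scaffolds, their RS and SR dipeptide densities were 1.13 per 100 residues in SFPQ, 0.425 in NONO and 0.765 in PSPC1, on either side of the median of coding genes.

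SFPQ (ENSG00000116560.12, chromosome 1, 35176378 to 35193446, minus strand) is needed to form paraspeckles and also acts in transcription and splicing. It had 4448 and 3325 counts, or 223 CPM in si-NC and 229 in si-SRSF2. The log2 ratio was 0.04 and its interval, from -0.03 to 0.10, held 0.

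NONO (ENSG00000147140.17, chromosome X, 71254814 to 71301522, plus strand), the main partner of SFPQ, had 8154 and 6128 counts, or 409 and 422 CPM. The log2 ratio was 0.05, with an interval from -0.00 to 0.09. The SFPQ counts per NONO count were 0.545 with si-NC and 0.543 with si-SRSF2, an odds ratio of 0.995 with an interval from 0.940 to 1.05. At this depth no difference in the ratio of the partners was detectable beyond those bounds.

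PSPC1 (ENSG00000121390.19, chromosome 13, 19674752 to 19783019, minus strand) is the family member that is not essential to the paraspeckle. It was the least abundant of the 10, with 917 and 812 counts, or 46.0 and 55.9 CPM, a difference of 21.6%. The log2 ratio was 0.28, with an interval from 0.14 to 0.42, and 332 of 4747 genes as abundant were higher. PSPC1 took 6.78% of the summed DBHS counts with si-NC (exact binomial interval 6.36 to 7.22%) and 7.91% in si-SRSF2 (7.40 to 8.45%). The odds ratio of PSPC1 to NONO was 1.18, with an interval from 1.06 to 1.30, and that of PSPC1 to SFPQ was also 1.18, from 1.07 to 1.32. The share of PSPC1 in the family was thus larger in si-SRSF2 whichever partner it was set against, whereas NONO took 60.3% and 59.7% and SFPQ 32.9% and 32.4%.

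RBM14 (ENSG00000239306.5, chromosome 11, 66616626 to 66629934, plus strand) has a prion-like domain and is needed to assemble paraspeckles. It had 954 and 939 counts, or 47.9 and 64.7 CPM, a difference of 35.2%. Its log2 ratio of 0.43, with an interval from 0.30 to 0.57, was the highest among the 8 protein genes, and 104 of 4383 genes as abundant were higher. RBM14 shares 6.67% of its exon bases on the same strand with the read-through gene RBM14-RBM4, which had 0 counts in both libraries. RBM4, the RNA-binding protein gene that the read-through joins to it, had 612 and 402 counts and a log2 ratio of -0.15. So the higher level of RBM14 did not extend to its neighbour.

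The other overlaps were small. DONSON covered 2.41% of SON exons on the opposite strand, with 1448 and 942 counts of its own. ELOB, not listed under that symbol, covered 3.14% of SRRM2, ZMYM3 (1645 and 1119 counts) 1.67% of NONO, C14orf119 (869 and 616 counts) 1.21% of ACIN1, and PSPC1-AS2 0.747% of PSPC1. SRRM1 and SFPQ overlapped no other gene.

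The siRNAs are shown because their seeds can act on other transcripts. The strand with the sense of the target is written 5′ to 3′ as the study lists it, with the target of the guide's seed (bases 2 to 8 of the guide) in capitals where it lies in SRSF2.
si-SRSF2: uccaaauccagGUCGCGAutt
si-NC: uucuucgaacgugucacgutt

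The si-SRSF2 sequence without its overhang matched the SRSF2 canonical transcript from position 769, in the coding sequence. Its seed site GTCGCGA, searched on the sense strand, occurred in the canonical transcript of 1 of the 10 genes, RBM14, and in 2.22% of the transcripts of tested genes. The si-NC seed site TGTCACG occurred in NEAT1 alone of the 10 and in 6.67% of the transcripts of tested genes. These matches are a description of the letters.

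Over the 10 genes, 8 were higher and 2 lower in si-SRSF2, with a median log2 ratio of 0.06. Of all 12620 genes tested, 5830 were higher and 6790 lower, with a median of -0.02. At a threshold of 1.5-fold, NEAT1 was the single gene of the 10 past it, and none was past it downward. The share of all genes tested past 1.5-fold was 7.69% in either direction and 4.18% upward, but abundant genes spread less. Among the 4747 genes with at least the mean CPM of PSPC1, 51.0 CPM, the shares were 2% in either direction and 1.03% upward. Long noncoding RNAs with 1 exon, the class of NEAT1, passed it upward more often, 8 of the 34 tested at all levels. None of the 10 reached a 2-fold difference, as did 1.35% of all genes tested. The margin of NEAT1 over 1.5-fold, a log2 ratio of 0.58, was small, and the lower end of its interval lay below it.

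The counting interval left out 0 for 8 of the 10 genes, above 0 for 6 and below 0 for 2, but this held for 62.6% of the 4747 genes at this level. An interval that leaves out 0 is therefore common for genes with this many counts. The middle 50% of those 4747 log2 ratios ran from -0.15 to 0.10. NEAT1, RBM14, MALAT1 and PSPC1 lay above that range and SRRM1 and ACIN1 below it, while SON, NONO, SFPQ and SRRM2 lay within it. Together the 10 genes took 0.463% of all counts with si-NC and 0.525% with si-SRSF2.

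**Figure D4:**
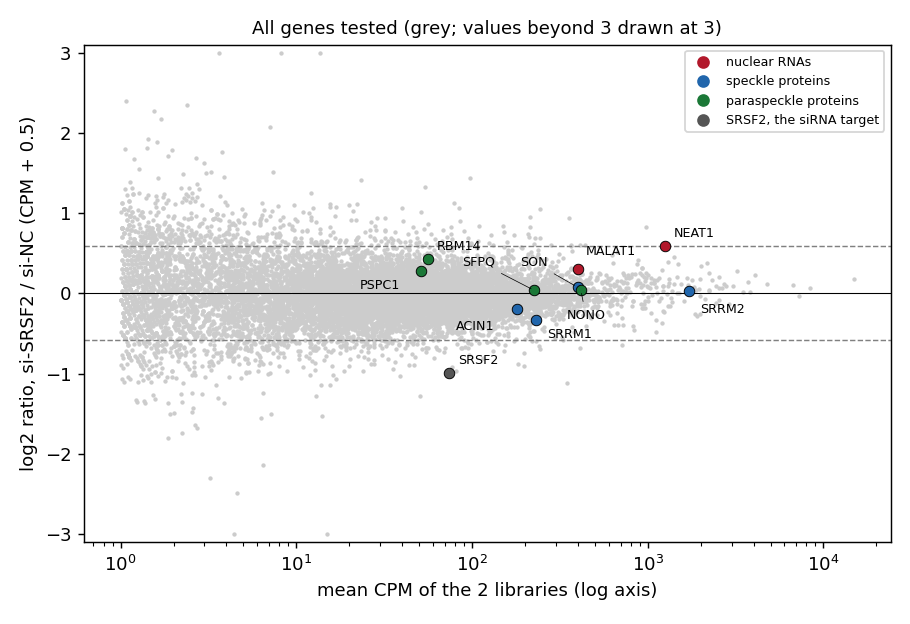
Log2 ratio against mean CPM (log axis) for the 12620 genes tested in grey and the 10 genes and SRSF2 in colour, with dashed lines at 1.5-fold. The grey cloud narrows to the right, and NEAT1 at a mean of 1250 CPM lies at its upper edge.

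Levels between genes are comparable only per length. In CPM per kilobase of canonical transcript in si-NC, SRRM2 stood at 189 and NONO at 154, far above the rest. SRRM1 (68.9), SFPQ (59.7) and SON (46.2) followed. NEAT1 (43.8) and ACIN1 (43.2) came next and did not differ beyond their counting intervals, ahead of MALAT1 (34.4). PSPC1 (18.9) and RBM14 (8.92) were lowest. In si-SRSF2, NEAT1 stood at 66.1 and SRRM1 at 54.9 CPM per kilobase, the reverse of their order in si-NC, but with the merged exons of all transcripts as length SRRM1 stood at 32.2 in si-NC, already below NEAT1. This order depends on the length that stands for each gene, and for NEAT1 on the unknown mix of isoforms.

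The proteins of the exon junction complex, which marks spliced junctions, and of the ASAP and PSAP complexes that attach to it were examined next. In ASAP, ACIN1 joins RNPS1 and SAP18, and in PSAP PNN takes its place. All 8 passed the filter, 5 higher and 3 lower, with a median log2 ratio of 0.10 and none past 1.5-fold. The highest was MAGOH, a core subunit of the exon junction complex, with 724 and 735 counts and a log2 ratio of 0.47. Its paralogue MAGOHB was the lowest, with 265 and 163 counts and a log2 ratio of -0.23, although its interval, up to 0.04, held 0. The direct ASAP partners of ACIN1 were both higher, SAP18 at 0.37 and RNPS1 at 0.18 in log2 ratio, opposite in sign to ACIN1. The 3 lower genes, with the sign of ACIN1, were MAGOHB, PNN (-0.09) and EIF4A3 (-0.22).

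Of 20 other speckle proteins, 19 passed the filter, and DDX39B was listed at 0 in both libraries. A listed 0 was not read as absence of the RNA, because it is uncertain which gene models were counted. There were 12 higher and 7 lower, with a median log2 ratio of 0.05 and none past 1.5-fold. LUC7L3, a U1 snRNP-associated factor, was the highest, with 2526 and 2186 counts and a log2 ratio of 0.25. ALYREF, an mRNA export adaptor, was the lowest, with 693 and 379 counts and a log2 ratio of -0.41. The share past 1.5-fold was 7.69% over all genes tested and 2% over those with at least the mean CPM of PSPC1. That none was past it in lists of 8 and 19 genes therefore says little about them.

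All 33 other paraspeckle proteins passed the filter, 15 higher and 18 lower, with a median log2 ratio of -0.03. RBM3, a cold-inducible RNA-binding protein, was at least 1.5-fold higher, with 3203 and 3796 counts, or 161 and 262 CPM, and a log2 ratio of 0.70, above that of NEAT1. ZC3H6, a zinc finger protein, had 428 and 137 counts and a log2 ratio of -1.14. TAF15, a FET-family protein, had 106 and 27 counts and a log2 ratio of -1.30. These 3 of the 33 genes were past 1.5-fold, beside 7.69% of all genes tested, and TAF15 rests on few counts.

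For the 15 factors that form, trim or bind the 3′ ends of such RNAs, 8 were higher and 7 lower, with a median log2 ratio of 0.01. None was past 1.5-fold, beside 7.69% of all genes tested. RPP38, a protein subunit of RNase P and RNase MRP, was the highest, with 256 and 229 counts and a log2 ratio of 0.29. XRN2, a nuclear 5′ to 3′ exonuclease, was the lowest of those with a mean of at least 5 CPM, with 5207 and 3252 counts and a log2 ratio of -0.22. METTL16, which binds the MALAT1 triple helix, had a log2 ratio of 0.01, and ELAC2, the enzyme that trims mascRNA, -0.04.

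Of 7 other long noncoding RNAs held in the nucleus, 4 passed the filter, 2 higher and 2 lower, with a median log2 ratio of 0.00. KCNQ1OT1 was the highest at 0.10 and TUG1 the lowest at -0.19, with 3112 and 1987 counts. Across all 326 long noncoding RNAs tested, 182 were higher and 144 lower, with a median log2 ratio of 0.10. MALAT1 and NEAT1 lay above that median. Relatives of the SRRM scaffolds were weakly expressed: SRRM3 had 186 and 109 counts, SRRM4 was listed at 0 and the antisense gene SRRM2-AS1 had 3 and 4 counts.

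**Figure D5:**
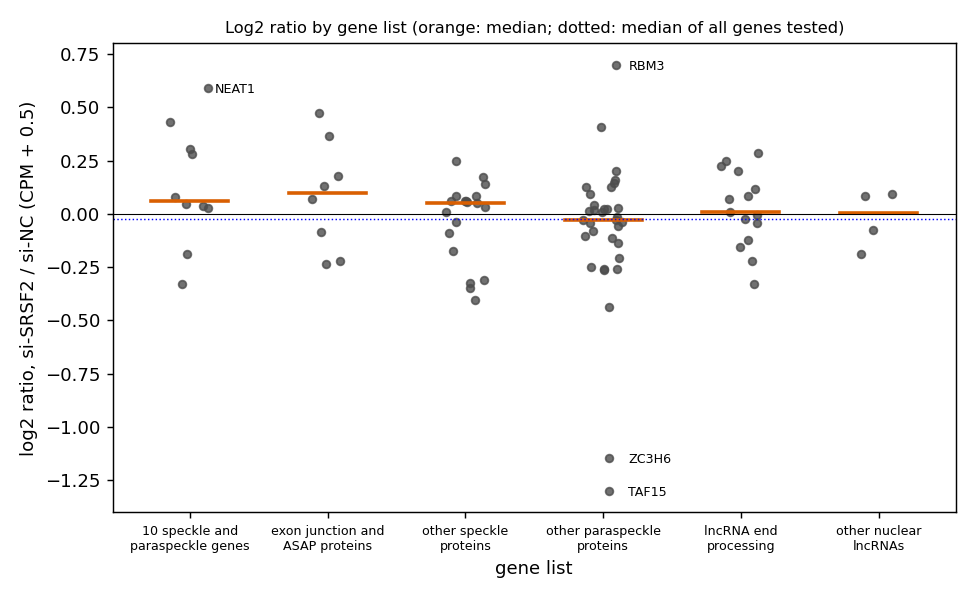
Log2 ratio of each gene that passed the filter, by list, with the median of the list as an orange bar and the median of all genes tested as a dotted line. Medians run from -0.03 to 0.10, and NEAT1, RBM3, ZC3H6 and TAF15 are the genes past 1.5-fold.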

How the data were processed

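Total RNA of RKO cells was made into libraries with the TruSeq Stranded mRNA kit and sequenced on HiSeq X. The authors trimmed the reads, aligned them to GRCh38 with HISAT2 (2.0.4 per the submitters' processing notes) and counted them per gene with HTSeq. The authors deposited these raw counts without normalization, listed by symbol, with 1 library per group. Whether HTSeq used strand is not given in the sources used here.

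Counts were scaled by TMM with edgeR 4.0.16 in R 4.3.3 and expressed as CPM, with 0.5 CPM added before the log2 ratio. Genes were kept where the mean was 1 CPM or more. Clopper-Pearson and exact odds ratio intervals at 95% were computed with SciPy 1.17.1. With 1 library per group, no test was run. The calculations were tested on simulated data. Coordinates, transcripts and overlaps came from GENCODE 44 on GRCh38, in which 11294 of the tested genes (89.5%) were matched by symbol. These models may differ from those the authors counted. Dipeptides were counted in translated canonical coding sequences. INTS11 was matched to its older symbol CPSF3L. The promoters and miRNA sequences were not used here, and the results for 2 genes are not reported here.

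The members and lists were chosen with earlier results of these data known. The genes named were the 10 genes, SRSF2, genes whose exons overlap one of the 10, genes that start within 200 kb of MALAT1 or NEAT1 at a mean of 1 CPM or more and, from each list, genes at least 2-fold different and the highest and lowest log2 ratio where the mean was 5 CPM or more. The cell type markers were a list of their own. Beyond these, SAP18, RNPS1, PNN, EIF4A3, METTL16, ELAC2, DDX39B, SRRM4, SRRM2-AS1 and the RNAs without a tail were named after their values were seen. The scaling was also done with DESeq2 1.42.0, by library totals alone and by upper quartiles. The pseudocount was set to 0.1 and to 2 CPM, the filter was dropped or raised to 5 CPM, and mitochondrial genes were removed together with the 20 genes of highest count. Other gene lengths were used for levels per kilobase.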

Additional observations from a re-analysis of the deposited data

How the results depend on the processing

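Across the scalings, pseudocounts, filters and library totals tried, each of the 10 genes and SRSF2 kept its sign, and NEAT1 was past 1.5-fold in 9 of 9 settings. Its log2 ratio ran from 0.59 to 0.62 and that of MALAT1 from 0.30 to 0.33. The settings counted include the main one and the filters, which cannot change a gene's own ratio. The lower end of the NEAT1 interval lay past 1.5-fold only with upper-quartile factors. Upper-quartile factors moved SRRM2 beyond its counting interval, to 0.053, and put the NONO interval above 0, from 0.022 to 0.12, so that 9 of the 10 intervals left out 0. The number of genes at least 1.5-fold higher and lower, 527 and 444, was 254 and 220 with a pseudocount of 2 CPM, 1262 and 837 with no filter, and 202 and 237 with a minimum of 5 CPM. The level per kilobase in si-NC depended on the length used. With merged exons it was 30.4 for SON, 132 for SRRM2, 32.2 for SRRM1, 21.2 for ACIN1, 28.9 for SFPQ, 36.5 for NONO, 9.55 for PSPC1 and 7.39 for RBM14. With the longest transcript it was 66.7 for SRRM1, 39.1 for ACIN1, 55.2 for SFPQ and 83.6 for NONO. Alternatives chosen after seeing the data were the RefSeq span of MALAT1, which gave 40.9, and the length of the short isoform for NEAT1, which gave 266. No paired analysis was possible because the groups compared held a single library each, and so no replicate could be left out.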
